A study of Mus musculus with 13 samples.

Results

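Guanylin and uroguanylin are the 2 peptide hormones of the intestinal guanylate cyclase C pathway, encoded by the mouse genes Guca2a and Guca2b. Both were found by symbol among the 16204 genes measured, so all 2 members are described here. They were followed in 892 single cells of mouse small intestine, the cells with at least 3000 transcripts among 1248 sequenced cell barcodes. The assay was CEL-seq, which reads the 3′ ends of messenger RNA in single cells and counts molecular barcodes, so that each counted transcript stands for 1 captured molecule.

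All mice were C57Bl6/J animals with the alleles Lgr5-CreERT2 and Rosa26LSL-YFP. Cre is driven by the Lgr5 locus, so tamoxifen switches on YFP in Lgr5-expressing stem cells and later in what they give rise to, called traced cells. The libraries fall into these groups, with 3 libraries of traced CD24+ cells at 8 weeks, 1 of traced cells at 8 weeks without that gate, 2 of non-traced CD24+ cells at 8 weeks, 1 of traced CD24+ cells at 3 weeks, 1 labelled as non-traced CD24+ cells at 3 weeks, and 5 of traced cells at 5 days. CD24 is a surface protein used as a sorting gate. The age of the mice, and which animals or how many gave each library, are not given in the sources used here, so p-values measure the spread between libraries, which may be partly technical.

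Guanylin and uroguanylin are small secreted peptides held by disulfide bonds. Released into the gut lumen, they bind guanylate cyclase C on the brush border, and the cyclic GMP that it makes acts through a cGMP-dependent kinase to open the chloride channel CFTR and to slow sodium uptake by the exchanger NHE3, so that salt and water move into the lumen. Heat-stable enterotoxins of diarrhoeal bacteria act on the same receptor. Guanylin has long been known from goblet cells and other surface cells of the gut, and uroguanylin from the proximal small intestine.

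The genes lie side by side on chromosome 4 and point towards each other (GENCODE vM21, GRCm38, the assembly also called mm10). Guca2a (ENSMUSG00000023247.2) covers chr4:119637704-119639471 on the plus strand and Guca2b (ENSMUSG00000032978.14) covers chr4:119656607-119658954 on the minus strand, with 17135 bases between them. The hormones are made from the ends of longer precursors, so the last 15 codons and the stop codon of each coding sequence are shown, in capitals where a codon stands for cysteine. They lie in the last exons, at chr4:119639228-119639275 on the plus strand for Guca2a and at chr4:119656792-119656839 on the minus strand for Guca2b.
Guca2a: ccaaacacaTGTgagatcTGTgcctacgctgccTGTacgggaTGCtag
Guca2b: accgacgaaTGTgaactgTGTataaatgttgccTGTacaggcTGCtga
Each stretch has 4 cysteine codons, and all 4 stand at the same place in both genes. Of the 45 bases before the stop codon 29 are alike, and 5 of the 15 codons are the same.

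Because both genes were raised in the same classes of cells, their promoters are shown as well (RefSeq, GRCm38.p6), from 250 bases before the RefSeq start to the base before the most upstream annotated exon, at chr4:119637482-119637703 on the plus strand and chr4:119658955-119659195 on the minus strand. Capitals mark a match to the pattern GTTA N T NNN T N AC (spaces only for reading), of the kind bound by HNF1, a homeodomain factor of gut and liver epithelium.
Guca2a: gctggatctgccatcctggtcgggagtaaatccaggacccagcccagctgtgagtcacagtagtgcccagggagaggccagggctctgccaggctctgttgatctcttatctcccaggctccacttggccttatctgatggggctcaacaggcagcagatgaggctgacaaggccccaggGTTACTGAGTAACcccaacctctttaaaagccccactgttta
Guca2b: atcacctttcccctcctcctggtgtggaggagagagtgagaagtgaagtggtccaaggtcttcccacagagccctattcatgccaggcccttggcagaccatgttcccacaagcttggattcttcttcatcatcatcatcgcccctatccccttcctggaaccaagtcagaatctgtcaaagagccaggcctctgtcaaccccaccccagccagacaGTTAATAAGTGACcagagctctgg
The match begins at position -70 from the RefSeq start in Guca2a and at position -33 in Guca2b. The search ran on both strands of whole RefSeq windows of 300 bases, from 250 before the start to 50 from it, of which the stretches shown are the part ahead of the first annotated exon. The pattern occurs in 228 of 32851 such mouse windows (0.694%), but it was written with both sequences in view, so its presence in both is a description and no test. The GATA-type letters AGATAA, searched on both strands, occur 2 times in the Guca2a window and 0 times in that of Guca2b, and in 11.2% of all windows. The matches to these 2 patterns do not overlap in the Guca2a window, and a match is no evidence of binding.

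The libraries held 421675 to 1385266 transcripts each, and the kept cells of a library had medians of 5412 to 14458 transcripts. Cells were grouped without Guca2a and Guca2b and called by marker genes as goblet-like (98 cells), Paneth-like (68), enterocyte-like (47), enteroendocrine-like (110), tuft-like (139), proliferating-like (146) and stem-like (129), while 155 stayed unnamed. In replicate 4 at 5 days, 41 of 68 cells formed a cluster of their own that was led by goblet, enterocyte and enteroendocrine genes together (Zg16, Fabp1, Ghrl), and it stayed unnamed. The combined table of the study names no non-traced set at 3 weeks but a 3-week set with YFP and without CD24, which was not used here, so the label of the library called non-traced at 3 weeks could not be checked. The 5-day libraries had no more than 0.0134 Xist and at least 0.197 Ddx3y transcripts per 10000, against at least 0.813 Xist and 0 Ddx3y in the 8 later ones, so the mice differed in sex between 5 days and later. All libraries use the same 96 cell barcodes, and no kept cell had the profile of another.

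Guca2a was above all a goblet-like transcript. Its level, in transcripts per 10000 of a library's summed cells of a class, averaged 37.2 ± 9.90 in goblet-like cells (SD, n = 12 libraries with at least 3 such cells), between 24.3 and 56.2. Paneth-like cells came next with 7.09 ± 5.68 (n = 8), between 1.60 and 16.6, and enterocyte-like cells with 1.11 ± 1.27 (n = 6), between 0.148 and 3.42. The goblet-like libraries did not overlap with those of any other named class, although the lowest of them, 5-day replicate 5, had 3 such cells and 38 of its 54 Guca2a transcripts in 1 of them, whereas Paneth-like and enterocyte-like libraries overlapped. Enteroendocrine-like cells averaged 0.787 ± 1.12 (n = 7), proliferating-like 0.255 ± 0.295 (n = 9), stem-like 0.142 ± 0.139 (n = 9) and tuft-like 0.106 ± 0.0882 (n = 7), and these neighbours did not differ beyond their spread. In 8-week traced CD24+ replicates 1 and 2, 1 proliferating-like cell each held 17 of 19 and 15 of 16 Guca2a transcripts of the class. The same cells held 29 of 36 and 8 of 8 of Guca2b. Without them the Guca2a levels there were 0.0465 and 0.0592, from 0.400 and 0.918. Of all Guca2a transcripts in kept cells, 73.4% were in goblet-like cells, which made up 10.99% of the cells, and 15.4% were in Paneth-like cells. These shares pool all groups. At 5 days 53.6% were in goblet-like, 5.44% in Paneth-like and 36.7% in unnamed cells. In the gated 8-week traced libraries the same shares were 70.4%, 25.2% and 0.0839%.

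Guca2b was spread over 3 classes. It averaged 16.9 ± 5.45 per 10000 in Paneth-like cells, which make antimicrobial peptides (n = 8, between 9.63 and 24.5). Goblet-like cells averaged 10.1 ± 6.79 (n = 12, between 4.45 and 30.5) and enterocyte-like cells, the absorptive cells, 9.73 ± 4.71 (n = 6, between 4.43 and 17.1), and the ranges of these 3 classes overlapped. All other classes stood far lower, with 0.691 ± 0.851 in stem-like cells, 0.541 ± 0.412 in proliferating-like cells (n = 9 each), 0.190 ± 0.173 in enteroendocrine-like cells and 0.0977 ± 0.0912 in tuft-like cells (n = 7 each). Paneth-like cells held 51.1% of all Guca2b transcripts, goblet-like cells 28.5% and enterocyte-like cells 10.1%. These shares pool gated and ungated libraries. Within the gated 8-week traced libraries, which had no enterocyte-like cell, they were 78.01%, 17.6% and 0%, against 32.9%, 11.1% and 25.5% in the ungated 5-day libraries. Paneth-like cells were also the deepest, with a median of 18184 transcripts per cell against 8900 in goblet-like and 8288 in enterocyte-like cells. The goblet-like values include 10 cells with more Paneth than goblet marker transcripts. Their median Guca2b level was 32.6 per 10000, against 5.25 in the other 88 goblet-like cells. Doublets were not called, and the part of these 10 cells in the goblet-like values was not tested.

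**Figure D1:**
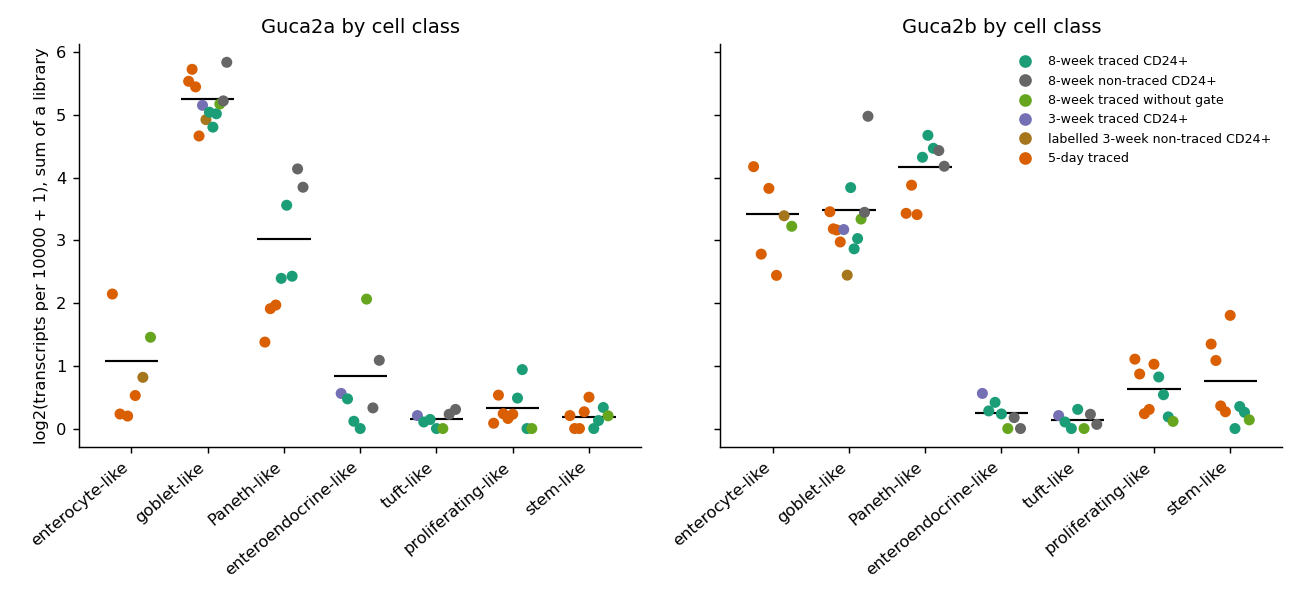
Level of Guca2a (left) and Guca2b (right) on the scale of log2(transcripts per 10000 + 1) for each class of cells (x axis). Each point is the sum over 1 library's cells of the class (at least 3 cells), coloured by group, and the line is at the mean level over libraries; Guca2a stands highest in goblet-like cells, and Guca2b stands high in enterocyte-like, goblet-like and Paneth-like cells.

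The first comparison set the mature classes against stem-like cells at 5 days, on the part of the counts that had not been used to group the cells. Stem markers did not set these stem-like cells apart from proliferating-like cells. They summed to 18.9 to 26.1 per 10000 in 5-day stem-like and to 18.8 to 25.5 in 5-day proliferating-like libraries. Guca2b was higher in all 3 mature classes. Its log2 difference to stem-like cells was 4.68 ± 0.379 (SE) in Paneth-like cells (adjusted p = 5.47e-12), 3.51 ± 0.371 in enterocyte-like cells (adjusted p = 4.01e-09) and 3.22 ± 0.423 in goblet-like cells (adjusted p = 6.68e-07). By library the 5-day levels of Guca2b were 17.1, 5.87, 13.2 and 4.43 per 10000 in enterocyte-like cells of replicates 1, 2, 3 and 5, against 1.54, 1.12, 0.284, 0.204 and 2.49 in stem-like cells of replicates 1 to 5. Every enterocyte-like library stood above every stem-like one, although replicate 5 had 10 such transcripts in 4 enterocyte-like cells, 6 of them in 1 cell. In the Paneth-like cells the 5-day levels were 9.78, 13.7 and 9.63 in replicates 2, 3 and 5, and in goblet-like cells they were 9.97, 8.08, 7.97 and 6.86 in replicates 1, 2, 3 and 5.

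Guca2a also passed the threshold in each of these 3 comparisons, but only 3 of its transcripts were counted in the stem-like sums of that part, so its size is given as a ratio of summed levels with an exact counting interval at 95%. The ratio to stem-like cells was 394 in goblet-like cells (interval 134 to 1920, adjusted p = 8.26e-17), 19.5 in Paneth-like cells (6.11 to 99.6, adjusted p = 1.43e-06) and 10.2 in enterocyte-like cells (2.96 to 54.6, adjusted p = 0.00224). The enterocyte-like value rested on replicate 1, where 3 of 11 cells held the transcript, 18 of 30 transcripts were in 1 cell and the level was 3.42 per 10000, against 0.174, 0.148 and 0.440 in replicates 2, 3 and 5. Without replicate 1 the log2 difference was 0.47 and the adjusted p was 0.802. Among all 1233 genes tested at 5 days, 52.3% were called between enterocyte-like and stem-like cells, 18.6% between goblet-like and stem-like cells and 6.65% between Paneth-like and stem-like cells, so a call as such is common in the first of these.

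The same classes were compared directly. Guca2a was lower in enterocyte-like than in goblet-like cells at 5 days by a log2 difference of -5.42 ± 0.358 (adjusted p = 4.55e-14), while Guca2b did not pass the test (0.29 ± 0.314, adjusted p = 0.493), and 41.6% of genes were called. By library Guca2a stood at 3.42, 0.174, 0.148 and 0.440 per 10000 in enterocyte-like cells, against 45.4, 51.9, 42.6 and 24.3 in goblet-like cells of the same replicates. Between goblet-like and Paneth-like cells the members went opposite ways, in comparisons added after the levels by class had been seen. Guca2a was higher in goblet-like cells by 3.38 ± 0.353 (adjusted p = 2.57e-09) and Guca2b lower by a log2 difference of -1.46 ± 0.324 (adjusted p = 0.00167), where 11.6% of genes were called. With DESeq2 the adjusted p of the Guca2b difference was 0.0563.

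At 8 weeks the classes of the 5 CD24+ libraries were compared in the same way, with 2195 genes tested. The stem-like sums of the test part held 0 Guca2a and 1 Guca2b transcript, so fitted fold changes against them are no measure of size. Guca2a was higher in goblet-like and in Paneth-like than in stem-like cells (adjusted p = 1.78e-13 and 2.76e-12). With the 0 set to 3 counts over the group, the ratios were 217 in goblet-like and 54.4 in Paneth-like cells. All counts together held 5 Guca2a transcripts in the stem-like sums. They gave ratios of 270 (counting interval 116 to 833) and 64.98 (27.7 to 201), so 217 and 54.4 are no lower limits. The stem-like sums came from 3 libraries, all traced, and those of goblet-like and Paneth-like cells from 5. For Guca2b the ratio to stem-like cells was 370 in Paneth-like cells (counting interval 66.3 to 14637, adjusted p = 1.78e-13) and 223 in goblet-like cells (39.8 to 8828, adjusted p = 1.51e-08). These sizes rest on that 1 transcript. On all counts, with 6 Guca2b transcripts in the stem-like sums, the ratios were 122 in Paneth-like (55.7 to 332) and 80.2 in goblet-like cells (36.7 to 219). In these fits 17.7% of genes were called between goblet-like and stem-like cells and 32.4% between Paneth-like and stem-like cells.

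Neither member passed in enteroendocrine-like or tuft-like cells against stem-like cells. Enteroendocrine-like cells held 15 Guca2a transcripts in the test part (adjusted p = 0.0733) and 7 of Guca2b (adjusted p = 0.634), and 27.8% of genes were called. Tuft-like cells held 9 and 5 (adjusted p = 0.241 and 0.898), and 36.1% of genes were called. The sign of both tuft-like values and of both enteroendocrine-like values turned under other settings. In the ungated 8-week library, 5 enteroendocrine-like cells held 10 Guca2a transcripts (3.18 per 10000), of which 9 were in 1 cell.

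Goblet-like and Paneth-like cells differed at 8 weeks in the same directions as at 5 days. Guca2a was higher in goblet-like cells by 0.91 ± 0.231 (adjusted p = 0.00655) and Guca2b lower, with a log2 difference of -1.96 ± 0.290 (adjusted p = 2.02e-06), where 11.1% of genes were called. The Guca2a call was lost with DESeq2 (adjusted p = 0.097), without traced CD24+ replicate 1 (0.0534) and where cells down to 1500 transcripts were kept (0.262).

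The ratio of the hormones differed between classes in every library compared. Capture was not measured and may differ between the transcripts, so a ratio above or below 0 is one of counted transcripts, and it is the difference between classes that is read. Within a library, the log2 ratio of Guca2b to Guca2a transcripts (0.5 added to each) was 2.30, 4.76, 5.90 and 2.82 in enterocyte-like cells at 5 days, against -2.17, -2.67, -2.40 and -1.79 in goblet-like cells of the same libraries. All enterocyte-like values were above 0 and all goblet-like values below it. The mean difference was 6.21 ± 1.95 (SD, n = 4), and the exact two-sided sign-flip permutation test gave p = 0.125, the smallest that 4 libraries allow. In Paneth-like cells the ratio lay between 0.308 and 2.58, above that of goblet-like cells in 8 of 8 libraries, with a mean difference of 3.49 ± 1.32 (exact permutation p = 0.00781, the smallest that 8 libraries allow). That comparison was added after the levels by class had been seen, and both tests are of single values with no adjustment between them. The smallest differences, 2.18 and 1.24, were those of the non-traced libraries.

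**Figure D2:**
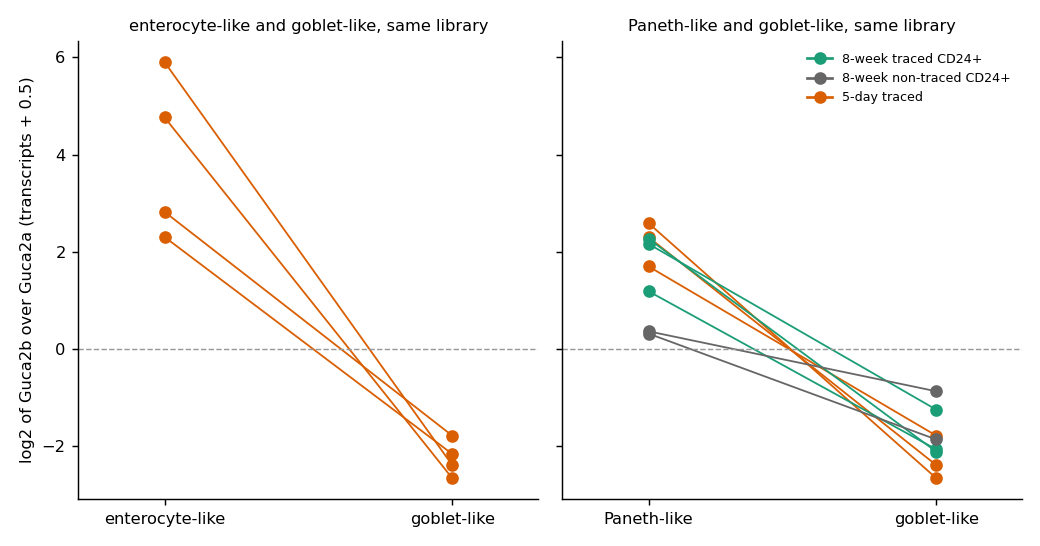
The log2 ratio of Guca2b to Guca2a transcripts (y axis, 0.5 added to each count) in enterocyte-like and goblet-like cells at 5 days (left) and in Paneth-like and goblet-like cells at 5 days and 8 weeks (right). Each line joins both classes of 1 library; the ratio is above 0 in every enterocyte-like and Paneth-like sum and below 0 in every goblet-like sum.

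In single cells the hormones overlapped by class. Among goblet-like cells 95 of 98 had at least 1 Guca2a transcript (96.9%, exact binomial interval 91.3% to 99.4%), 84 had Guca2b (85.7%, 77.2% to 91.96%) and 83 had both (84.7%). All 68 Paneth-like cells had Guca2b, and 58 of them (85.3%, interval 74.6% to 92.7%) had Guca2a as well. By group Guca2a was in 76.2% of 21 Paneth-like cells at 5 days. At 8 weeks it was in 83.3% of 30 traced CD24+ and 100% of 15 non-traced CD24+ cells. The intervals of these shares take pooled cells as independent and do not cover the spread between libraries. Of 47 enterocyte-like cells 37 had Guca2b (78.7%, 64.3% to 89.3%), 13 had Guca2a (27.7%, 15.6% to 42.6%) and 10 had both (21.3%), where the product of the shares is 21.8%. In goblet-like and Paneth-like cells 1 gene was in nearly every cell, so the share with both was set by the other gene.

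Shares of cells with a transcript depend on depth and on RNA from other cells. Background RNA was not measured, and tuft-like cells, the class with least of both, were taken as a guide to it in the gated and later libraries. They were picked for their low values, so they can understate background, and the contrast with other classes is no test. Of 139 tuft-like cells 15 held Guca2a (10.8%), 12 held Guca2b (8.63%) and 0 held both, which allows up to 2.62% by the exact interval. The product of these shares is 0.932%, so 0 with both says little about overlap. The median of tuft-like cells was 6947 transcripts per cell. No 5-day library had a tuft-like cell, so they say nothing of the background there, where Guca2b was seen in 5 of 6 enteroendocrine-like cells. Stem-like cells had Guca2a in 11.6% and Guca2b in 37.98% at a similar median of 6903, and proliferating-like cells 10.96% and 30.8% at 10230. After each cell was thinned to 3000 transcripts, both were seen in 67.3% of goblet-like cells, 55.9% of Paneth-like cells and 12.8% of enterocyte-like cells. In tuft-like cells both were seen in 0 of 139, where the product of the thinned shares is 0.0828%. The thinned Paneth-like share was 28.6% at 5 days, 56.7% in 8-week traced CD24+ and 86.7% in 8-week non-traced CD24+ cells. Guca2b was then left in 2.88% of tuft-like cells. In stem-like cells it was left in 11.5% of 26 from the gated 8-week traced libraries and 0% of 21 from the ungated one, against 32% of 75 at 5 days. Time and the sex of the mice changed together between these groups, and the difference was not tested. Without thinning these stem-like shares were 23.1%, 9.52% and 52%.

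Cells were also counted by how many transcripts they held. With at least 5 transcripts of a gene per cell as the mark, 87 goblet-like cells had Guca2a, 59 had Guca2b and 56 had both, while in Paneth-like cells 40, 65 and 40 did, and in enterocyte-like cells 3, 24 and 3. Counted Guca2a transcripts outnumbered those of Guca2b in 82 of 98 goblet-like cells, and Guca2b outnumbered Guca2a in 61 of 68 Paneth-like and 37 of 47 enterocyte-like cells. Of the 50 cells with the highest Guca2a level 48 were goblet-like and 2 Paneth-like. Of the 50 cells with the highest Guca2b level 25 were Paneth-like, 16 goblet-like and 9 enterocyte-like. The cell with the highest Guca2a level, a goblet-like cell of non-traced replicate 1, held 164 Guca2a and 17 Guca2b transcripts (146 and 14.7 per 10000). The highest Guca2b level belonged to an enterocyte-like cell of 5-day replicate 1 with 47 Guca2b and 18 Guca2a transcripts (54.5 and 20.4 per 10000), and the next to a cell of the same class and library with 41 and 0.

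**Figure D3:**
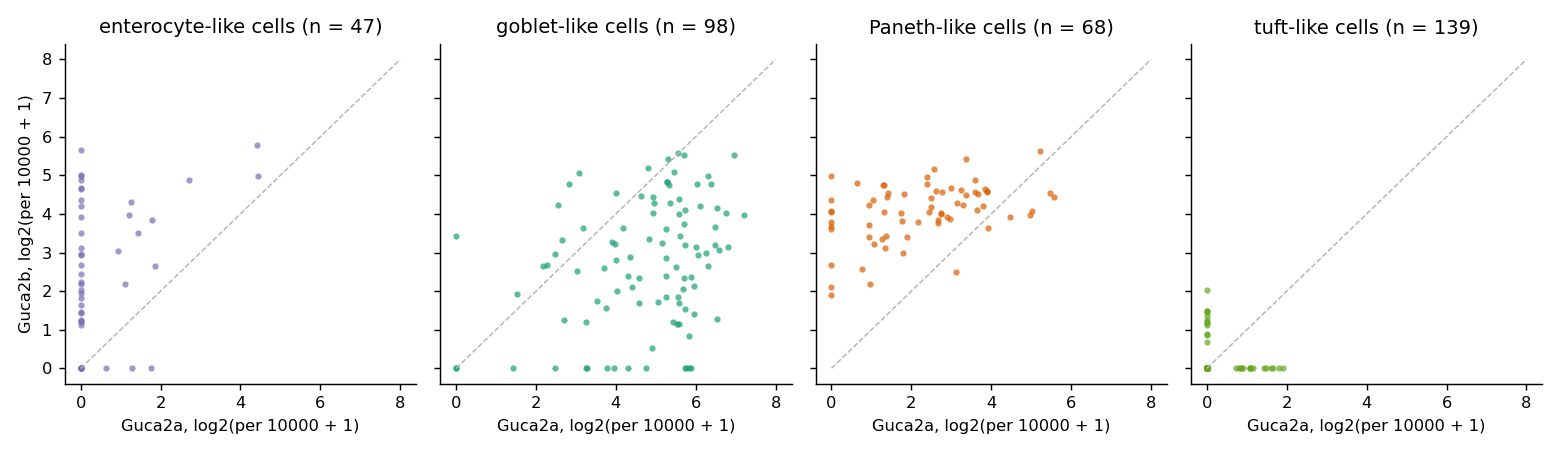
Guca2b (y axis) against Guca2a (x axis) in single cells, both as log2(transcripts per 10000 + 1), for enterocyte-like, goblet-like, Paneth-like and tuft-like cells. Each point is a cell and the dashed line marks equal counted levels, with capture not corrected; most goblet-like cells lie below the line, most Paneth-like cells above it, enterocyte-like cells mostly at 0 on the x axis, and no tuft-like cell has both.

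The hormones went with some markers of a class alike and with others differently. Over the 47 enterocyte-like cells Guca2b rose with the summed enterocyte markers (Spearman's rho 0.82 over cells, 0.80 after each library's mean was taken off), and Guca2a did not (0.16). Over the 98 goblet-like cells Guca2a rose with the summed goblet markers (0.55, and 0.67 within libraries), and Guca2b did not (0.03), while both rose with the summed Paneth markers (0.45 for Guca2a and 0.42 for Guca2b; 0.43 and 0.28 within libraries). In the 68 Paneth-like cells both rose with goblet markers (0.60 for Guca2a and 0.73 for Guca2b; 0.59 and 0.57 within libraries). The correlation between the hormones themselves was 0.23 in goblet-like, 0.38 in Paneth-like and 0.22 in enterocyte-like cells. Cells of 1 library share its depth and processing, so these values are descriptions. The marker lists hold neither member.

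Traced and non-traced CD24+ cells at 8 weeks differed in Guca2a. Over all kept cells Guca2a stood at 3.91, 3.32 and 5.50 per 10000 in the traced libraries, against 10.99 and 11.2 in the non-traced libraries. No traced library reached a non-traced one, and the log2 difference was -1.37 ± 0.222 (adjusted p = 0.00636, n = 3 and 2), with 4.21% of 8762 genes called. Guca2b stood at 5.24, 3.75 and 6.84 in traced against 5.95 and 7.69 in non-traced libraries and did not pass (-0.35 ± 0.251, adjusted p = 0.507). The Guca2a call was lost without non-traced replicate 1, with the same direction, in a fit that has 1 non-traced library left. Goblet-like cells numbered 8 of 87, 4 of 65 and 9 of 69 in traced against 7 of 84 and 6 of 63 in non-traced libraries, and Paneth-like cells 13, 5 and 12 against 10 and 5. By their share of all transcripts goblet-like cells made up 8.94%, 6.10% and 13.6% of the traced against 21.7% and 15.01% of the non-traced libraries. Medians were 9135 and 16563 transcripts per goblet-like cell. The 21.7%, of non-traced replicate 1, includes 1 cell of 145041 transcripts, against a median of 8900 over all goblet-like cells. The part of goblet-like cells in the Guca2a difference was not tested. In the combined table the names of replicate 2 and 3 of the traced and replicate 2 of the non-traced libraries carry the mark II and those of replicate 1 do not, which was taken as a batch, and Guca2a was lower in the traced cells within both (3.91 against 10.99, and 3.32 and 5.50 against 11.2).

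Within Paneth-like cells Guca2a stood at 4.26, 10.8 and 4.38 per 10000 in the traced libraries, against 16.6 and 13.4 in the non-traced ones, in a comparison added after the levels had been seen. The traced libraries lay below the non-traced ones, with a log2 difference of -1.39 ± 0.309 (adjusted p = 0.0381), where 0.54% of 2408 genes were called. Guca2b stood at 19.03, 24.5 and 21.1 in traced against 20.6 and 17.1 in non-traced Paneth-like cells and did not pass (0.10 ± 0.272, adjusted p = 0.989). The Guca2a call was lost with DESeq2 (adjusted p = 0.25), with the batch as a block (0.0662), with library sizes taken without Paneth genes (0.0512), without traced replicate 1 (0.176) or replicate 3 (0.362), and with classes taken by marker score alone (0.364), each time with the same direction. In traced replicate 2, 71 of the 89 transcripts were in 1 of 5 cells; without that cell the level there was 2.91 and the difference was -1.98 (adjusted p = 0.00113). Within the batch without the mark the levels were 4.26 in traced and 16.6 in non-traced cells, and within the batch with it 10.8 and 4.38 in traced and 13.4 in non-traced cells. Goblet markers summed to 235 to 358 per 10000 in traced and 239 to 377 in non-traced Paneth-like cells.

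Goblet-like cells gave no call between these groups. Guca2a stood at 31.9, 26.9 and 31.4 per 10000 in traced against 36.3 and 56.2 in non-traced goblet-like cells (log2 difference -0.92 ± 0.285, adjusted p = 0.253), and Guca2b at 13.3, 6.28 and 7.16 against 9.90 and 30.5 (-1.48 ± 0.457, adjusted p = 0.253), where 1.24% of 2099 genes were called. Non-traced replicate 2 was the highest library for both, and without it the differences were -0.42 and -0.25. These cells also differed in Paneth markers, which summed to 219 to 285 per 10000 in traced and to 593 and 1131 in non-traced goblet-like cells, and 7 of the 13 non-traced goblet-like cells, against 3 of the 21 traced ones, had more Paneth than goblet marker transcripts. In the cells with more goblet than Paneth marker transcripts the log2 differences were -1.47 for Guca2a (adjusted p = 0.109) and -1.34 for Guca2b (0.495). One goblet-like cell of non-traced replicate 1 held 145041 transcripts. Without it the differences were -1.37 (adjusted p = 0.00137) and -1.70 (0.00895), so the call of both members turned on 1 cell. Leaving out non-traced replicate 1 leaves only non-traced replicate 2, the highest library for both, so that fit was not read as a test. For Guca2b alone the call turned with the batch as a block (-1.38, adjusted p = 0.0311) and with no filter (-1.43, 0.000934). For Guca2a alone it turned with classes by marker score (-1.49, 0.00275).

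**Figure D4:**
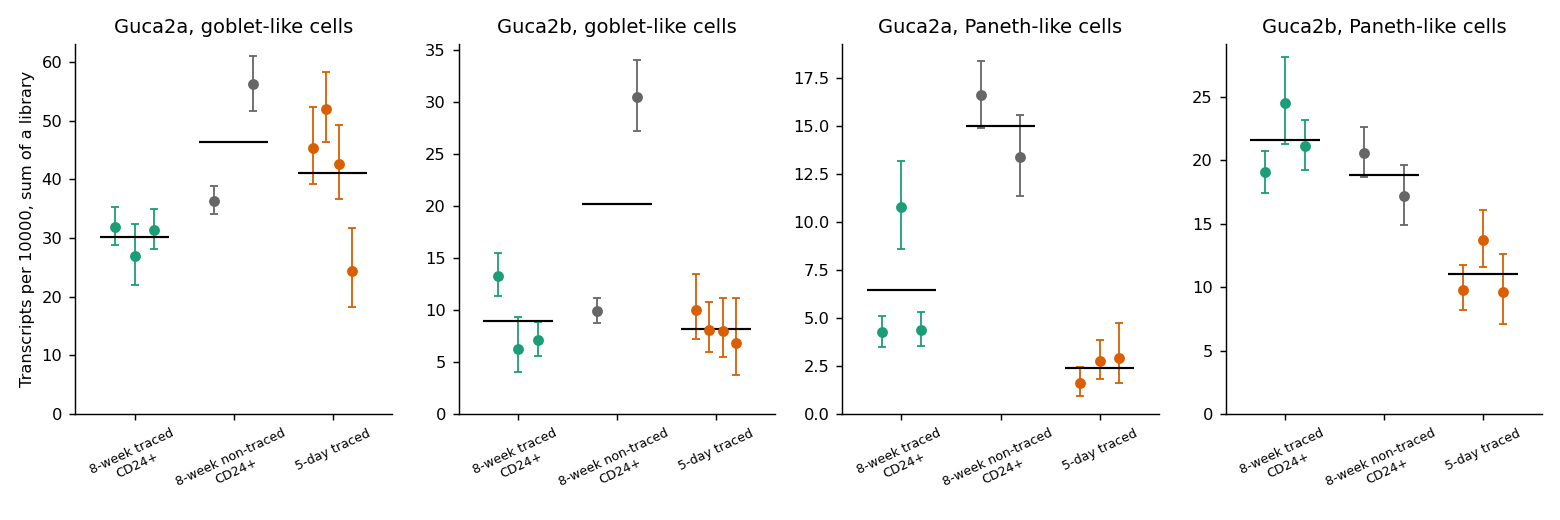
Guca2a and Guca2b in transcripts per 10000 (y axes) in goblet-like cells (left 2 panels) and Paneth-like cells (right 2 panels) of 8-week traced CD24+, 8-week non-traced CD24+ and 5-day traced libraries. Each point is a library with its exact Poisson interval at 95% and the line is the mean; Guca2a in Paneth-like cells is lowest at 5 days and highest in the non-traced cells, and Guca2b in Paneth-like cells is lowest at 5 days.

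Enteroendocrine-like cells had too few transcripts of either gene for a test between traced and non-traced cells. Guca2a stood at 0.388, 0.0837 and 0 per 10000 in the traced libraries, against 0.256 and 1.12 in the non-traced ones. Guca2b stood at 0.215, 0.336 and 0.175 against 0.128 and 0. The libraries of the groups overlapped for Guca2a. Both genes failed the filter on low counts there, and 0.162% of the 3080 genes that passed it were called.

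Between 8-week traced CD24+ cells and 5-day traced cells the whole sums did not differ past the threshold. Guca2a stood at 3.91, 3.32 and 5.50 per 10000 at 8 weeks, against 3.51, 4.59, 3.51, 5.26 and 2.39 at 5 days (log2 difference 0.08 ± 0.233, adjusted p = 0.814), and Guca2b at 5.24, 3.75 and 6.84 against 3.92, 3.57, 4.68, 3.40 and 2.36 (0.50 ± 0.222, adjusted p = 0.0913), where 37% of 8514 genes were called. Time, the CD24 gate and the sex of the mice changed together between these groups and cannot be told apart. The classes that carried the hormones changed as well. No 8-week traced CD24+ library had an enterocyte-like cell, against 2 to 11 in each 5-day library.

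Paneth-like cells had more of both hormones at 8 weeks. Guca2a stood at 4.26, 10.8 and 4.38 per 10000 at 8 weeks against 1.60, 2.76 and 2.91 in 5-day replicates 2, 3 and 5, and no libraries overlapped (log2 difference 1.66 ± 0.370, adjusted p = 0.00273). That separation rested on 1 cell, which held 71 of the 89 Guca2a transcripts of 8-week replicate 2. Without it that library was at 2.91, no higher than 5-day replicate 5, and the difference was 1.08 (adjusted p = 0.0114). Guca2b stood at 19.03, 24.5 and 21.1 against 9.78, 13.7 and 9.63, again without overlap (1.22 ± 0.221, adjusted p = 0.000793). Of 1098 genes tested, 45.5% were called, so a call is common in this comparison, which was added after the levels had been seen. Different clusters held the Paneth-like cells at the 2 times. Cluster 11 held 23 of 30 cells at 8 weeks and 1 of 21 at 5 days, and cluster 14 held the others. Within cluster 14 Guca2a stood at 2.13 per 10000 in 7 cells at 8 weeks and 1.90 in 20 cells at 5 days, and Guca2b at 12.9 and 10.4. In cluster 11 the 8-week traced cells had 6.45 of Guca2a and 23.6 of Guca2b, and the summed goblet markers had a median of 286 per 10000, against 124 in the 8-week cells of cluster 14.

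Goblet-like cells showed no call over the same span. Guca2a stood at 31.9, 26.9 and 31.4 per 10000 at 8 weeks against 45.4, 51.9, 42.6 and 24.3 at 5 days (-0.47 ± 0.246, adjusted p = 0.285), and Guca2b at 13.3, 6.28 and 7.16 against 9.97, 8.08, 7.97 and 6.86 (0.13 ± 0.278, adjusted p = 0.844), where 6.88% of 727 genes were called. Of the 4 libraries at 5 days 3 were above every 8-week library in Guca2a, and replicate 5 was below them. Without replicate 5 the Guca2a difference was -0.69 and passed (adjusted p = 0.0243).

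Groups of 1 library can be described but not tested, and their exact Poisson intervals cover counting error only. The 3-week traced CD24+ library had the highest Guca2a level over all its cells, 18.1 per 10000 (16.9 to 19.4), with 29 of 62 cells goblet-like. In those cells Guca2a stood at 34.6 (32.2 to 37.1) and Guca2b at 8.01 (6.91 to 9.28). The library labelled non-traced at 3 weeks had 29.4 (25.3 to 33.8) and 4.45 (3.01 to 6.46) in 5 goblet-like cells, and 0.761 (0.327 to 1.49) and 9.50 (7.70 to 11.5) in 10 enterocyte-like cells. The ungated 8-week traced library had 35.1 (31.9 to 38.5) and 9.12 (7.50 to 10.9) in 11 goblet-like cells and 1.74 (0.743 to 3.39) and 8.34 (5.96 to 11.5) in 3 enterocyte-like cells, but all 39 Guca2b transcripts and 7 of the 8 of Guca2a were in 1 of them. These single libraries stood within the range of the replicated groups for both members in goblet-like cells except for Guca2b in the library labelled non-traced at 3 weeks, which was the lowest of all 12.

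Cells outside the named classes carried part of both transcripts. The cluster that held 41 cells of 5-day replicate 4 alone had 8.35 Guca2a and 4.02 Guca2b transcripts per 10000, with cell medians of 8.77 and 3.91. All unnamed cells together held 8.25% of the Guca2a and 5.58% of the Guca2b transcripts. The 356 removed barcodes with fewer than 3000 transcripts held 61 Guca2a and 159 Guca2b transcripts, or 2.06 and 5.34 per 10000. In stem-like cells Guca2b stood at 0, 0.276 and 0.196 per 10000 in the gated 8-week traced libraries, against 0.204 to 2.49 in the 5 libraries at 5 days, and this difference was not tested. Summed stem markers differed as well, with 28.4 to 33.4 per 10000 in those 8-week and 18.9 to 26.1 in the 5-day libraries. Stem-like cells pool cluster 3 (73 cells, 3 stem markers raised) and cluster 8 (56 cells, 8 raised). Guca2b stood at 1.29 per 10000 in cluster 3 and at 0.257 in cluster 8.

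The pathway downstream of the hormones was read from a list of 18 genes. Gucy2c, the receptor guanylate cyclase C, was detected in every class, with 3.84 ± 1.17 per 10000 in enteroendocrine-like (n = 7), 3.79 ± 1.02 in tuft-like (n = 7), 2.19 ± 1.07 in enterocyte-like (n = 6), 1.66 ± 0.512 in stem-like (n = 9), 1.60 ± 0.348 in proliferating-like (n = 9), 1.54 ± 0.694 in goblet-like (n = 12) and 0.911 ± 0.237 in Paneth-like cells (n = 8). Against stem-like cells at 8 weeks it was higher in tuft-like (log2 difference 0.92 ± 0.298, adjusted p = 0.0133) and enteroendocrine-like cells (0.86 ± 0.297, adjusted p = 0.0271). The tuft-like call was lost without traced replicate 2 (adjusted p = 0.0966) or traced replicate 3 (0.0539), with no filter (0.0996) and with cells down to 1500 transcripts, where the difference was 0.31 (0.465). The enteroendocrine-like call was lost without traced replicate 2 (0.167), traced replicate 3 (0.0783) or non-traced replicate 1 (0.0518), with DESeq2 (0.0680), with no filter (0.264) and with cells from 1500 (0.65, 0.0794) or from 5000 transcripts (0.57, 0.103). It did not pass in goblet-like or Paneth-like against stem-like cells at either time (adjusted p between 0.846 and 0.989), nor in enterocyte-like cells at 5 days (adjusted p = 0.670).

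Counts are per captured 3′ end and not corrected for capture, so each pathway gene is compared only with itself across classes and groups. Of the 18 listed genes 4 could be tested at 5 days and 5 between classes at 8 weeks. Slc9a3r1, the scaffold that anchors NHE3 and CFTR, was higher in enterocyte-like than in stem-like cells (2.74 ± 0.345, adjusted p = 8.87e-08), while Kcne3 and Kcnq1, subunits of a basolateral potassium channel that sustains chloride secretion, were lower (-3.68 ± 0.496, adjusted p = 2.81e-07, and -1.54 ± 0.415, adjusted p = 0.00236). This made 1 higher and 2 lower of 4, with a median log2 difference of -0.65 beside 0.19 over all genes tested, of which 52.3% were called. Goblet-like cells had 0 higher and 2 lower (Kcne3 and Kcnq1), and Paneth-like cells 0 called of 4, beside 18.6% and 6.65% of all genes. At 8 weeks 1 gene was higher and 2 were lower of 5 in enteroendocrine-like cells, 2 higher and 1 lower in tuft-like cells, and 0 higher and 2 lower in goblet-like and in Paneth-like cells. Of all genes tested there, 27.8% were called in enteroendocrine-like, 36.1% in tuft-like, 17.7% in goblet-like and 32.4% in Paneth-like cells. Kcne3 was nearly absent from tuft-like cells, with 0.0468 ± 0.0520 per 10000 against 4.69 ± 1.59 in stem-like cells (log2 difference -6.94 ± 0.661, adjusted p = 3.52e-11). The differences of enterocyte-like cells and the Kcne3 difference of tuft-like cells passed in all 14 alternative fits of each. Without 5-day replicate 2 goblet-like cells no longer passed for Kcne3 (adjusted p = 0.0964) or Kcnq1 (0.0618). From 5000 transcripts per cell their differences were -1.12 (0.0918) and -1.38 (0.0534), and by marker score that of Kcne3 was -0.58 (0.345). At 8 weeks Kcne3 was lost in goblet-like cells without traced replicate 3 (0.0824) and in Paneth-like cells without traced replicate 1 (0.0597), traced replicate 3 (0.166) or non-traced replicate 1 (0.0929) and with DESeq2 (0.124). Slc9a3r1, the other gene higher in tuft-like cells (0.99 ± 0.379, adjusted p = 0.0365), was lost without traced replicate 1 (0.137) or 2 (0.180), with DESeq2 (0.0553), with no filter (0.0975) and from 5000 transcripts (0.0670).

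Cftr, the chloride channel, averaged 1.29 ± 0.277 per 10000 in proliferating-like, 1.26 ± 0.303 in stem-like, 0.637 ± 0.364 in enterocyte-like and 0.293 ± 0.263 in goblet-like cells, too little for the test between classes. Slc26a3, an apical chloride and bicarbonate exchanger, stood at 2.65 in enterocyte-like cells and at no more than 0.354 in any other class. Slc9a3, the gene of NHE3, was at 0 in 6 of 7 classes with 1 transcript in all, in proliferating-like cells. Capture of its 3′ end was not measured, so these counts do not show that the gene was absent. Over all cells at 8 weeks, 3 of 11 tested genes were higher and 0 lower in traced than in non-traced CD24+ cells (Cftr 1.55 ± 0.289, Kcne3 1.16 ± 0.178 and Prkg2, the gut cGMP-dependent kinase, 1.12 ± 0.275; adjusted p = 0.0117, 0.00425 and 0.0426), opposite in sign to Guca2a. Of all 8762 genes tested there 4.21% were called. Prkg2 lost its call in 8 of 12 alternatives, among them the omission of any 1 library (adjusted p between 0.0810 and 0.0852 for the traced libraries). Cftr was lost without traced replicate 1 (0.0605). It was also lost without non-traced replicate 1 (log2 difference 1.76) or replicate 2 (1.42), and Kcne3 without non-traced replicate 1 (1.14). Those fits have 1 non-traced library left, so only their sizes are given. Proliferating-like cells, which with stem-like cells had most Cftr and Kcne3, numbered 21, 11 and 6 in the traced against 0 and 2 in the non-traced libraries, and stem-like cells 6, 11 and 9 against 2 and 2; their part in these values was not tested.

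**Figure D5:**
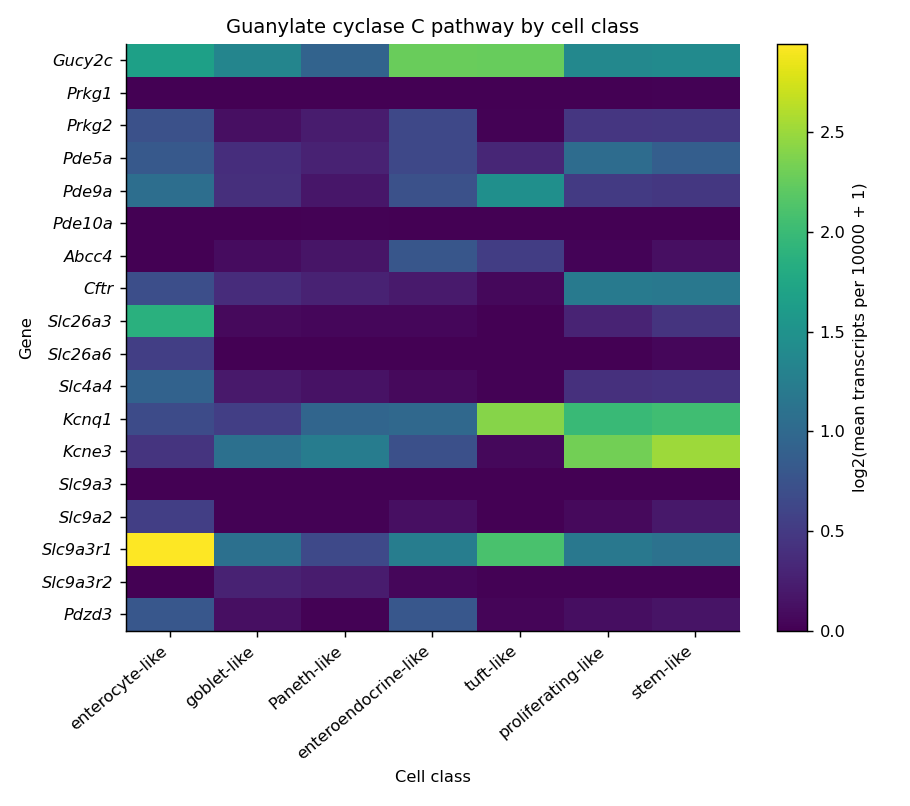
Mean level over libraries, as log2(transcripts per 10000 + 1), of the 18 genes of the guanylate cyclase C pathway (rows) in each class of cells (columns). Gucy2c is present in every class, Slc9a3r1 and Slc26a3 stand highest in enterocyte-like cells, and Kcne3 in stem-like cells.

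Between 8-week traced CD24+ and 5-day traced cells 2 of 12 tested pathway genes were higher and 3 lower over all cells. Among all 8514 genes tested 37% were called, so a call is common in this comparison. Abcc4, an exporter of cyclic nucleotides, was higher by 2.85 ± 0.443 (adjusted p = 0.00017) and Gucy2c by 0.40 ± 0.124 (adjusted p = 0.0209). Slc26a3 (-1.98 ± 0.265), Cftr (-0.91 ± 0.171) and Slc4a4, a basolateral bicarbonate transporter (-0.76 ± 0.269), were lower (adjusted p = 5.05e-05, 0.000769 and 0.0379). Abcc4, Slc26a3 and Cftr passed in every alternative fit. Gucy2c was lost without 8-week traced replicate 1 (0.0727) or 2 (0.0727), with DESeq2 (0.0521) and with no filter (0.0545). Slc4a4 was lost in 7 of 14 alternatives, among them the omission of 5-day replicate 1 (0.0547), 2 (0.0956) or 3 (0.0742) or of 8-week traced replicate 1 (0.0600) or 3 (0.146). The absence of enterocyte-like cells from the gated libraries stands beside the Slc26a3 value, and its part in it was not tested. Abcc4 and Gucy2c had their highest mean levels in enteroendocrine-like and tuft-like cells. For Abcc4 these were 0.731 and 0.450, against no more than 0.121 in any other named class. The 8-week traced CD24+ libraries held 57 enteroendocrine-like and 43 tuft-like cells. The 5-day libraries held 6 enteroendocrine-like cells and no tuft-like cell. The part of these classes in the Abcc4 and Gucy2c values was not tested.

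The genes whose levels ran most like each hormone were taken from 1717 genes over 58 sums of a library and class, by Spearman's rho. For Guca2a these were Agr2, a disulfide isomerase needed for mucin (0.81), Muc2, the gel-forming mucin (0.78), Klk1, a kallikrein (0.75), Hdlbp (0.75), Sec61b of the protein translocon (0.75), Serp1 (0.74), Smim14 (0.74) and P4hb, another disulfide isomerase (0.73). Guca2b itself ranked 16 for Guca2a with 0.69. For Guca2b the list was P4hb (0.83), Apoc2, an apolipoprotein (0.74), Rnase1, a secreted ribonuclease (0.74), Cgref1 (0.73), Guca2a (0.69), Serp1 (0.66), Agr2 (0.64) and the alpha-defensin Defa6 (0.61). The sums share libraries and depth, so these are descriptions. Agr2 averaged 74.6 per 10000 in goblet-like, 4.78 in Paneth-like and 0.226 in enterocyte-like cells. P4hb averaged 15.6, 14.4 and 20.1 in the same classes.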

How the data were processed

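CEL-seq was run on 13 libraries of 96 sorted cells. The deposited tables hold expected counts, 1 value for each gene in each cell; the values themselves fall on the steps of a correction for molecular barcodes drawn more than once, which no source used here describes. BWA 0.6.2-r126 and the build mm10 are named in the submitters' processing notes, and other steps are not given in the sources used here. Of the combined table, 96 columns could not be mapped and were not used. Cells with at least 3000 transcripts other than spike-ins were kept. Counts were split at random, with probability 0.5, into a part that grouped the cells (scanpy 1.11.5, leidenalg 0.10.2; 2000 variable genes, 30 components, 10 neighbours, resolution 1; Guca2a and Guca2b left out) and a part that tested classes. A cluster was named when at least 3 markers were raised and 1 marker was among its 10 leading genes, and not when over 85% of it was 1 library. Doublets were not called. Expected counts were summed per library and class (at least 3 cells), rounded to whole numbers and tested with edgeR 4.0.16 (quasi-likelihood test, TMM, filterByExpr, Benjamini-Hochberg adjustment over all genes tested, threshold 0.05; R 4.3.3), with the library as a block between classes. The steps were tested on simulated data. DESeq2 1.42.0, other filters, cell minimums, resolutions, marker-score classes, blocks and leaving out each library were alternatives. Intervals and floors (3 counts) cover counting error only. The text names both members, the pathway list and, for each member, the 8 genes of highest Spearman's rho. Members and lists were chosen with earlier results of these data known.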

Additional observations from a re-analysis of the deposited data

Results flagged for a closer look

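Values that stood apart were looked for in the 12 sets of 4 or 5 libraries at 5 days, 1 for each gene in all cells and in each class with enough libraries, and by chance about 1 in 20 such groups would give one. Guca2a in enterocyte-like cells of 5-day replicate 1 was at 3.42 transcripts per 10000, far above the other 3 libraries of that group. Guca2b in unnamed cells of 5-day replicate 4 was at 3.43 transcripts per 10000, far above the other 4, and 41 of the 47 unnamed cells of that library were in the cluster that it alone formed.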

How the results depend on the processing

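All values are log2 differences by edgeR unless a share of cells is named, and the cause of each change was not tested. For the tests of Guca2a and Guca2b, their ratio and the shares of cells with both, alternatives not named here kept the direction and the side of the threshold. Where cells down to 1500 transcripts were kept, the Guca2a differences to stem-like cells were 0.85 in enterocyte-like cells at 5 days, -0.17 in enteroendocrine-like and -1.85 in tuft-like cells at 8 weeks, that of goblet-like to Paneth-like cells at 8 weeks was 0.62, and that of Guca2b between 8 weeks and 5 days in goblet-like cells was -0.27. With at least 5000 transcripts per cell, Guca2a in tuft-like cells was at -0.94, and Guca2b was at -0.67 in enteroendocrine-like and -0.92 in tuft-like cells, at -0.14 between traced and non-traced Paneth-like cells and at 1.45 between 8 weeks and 5 days in goblet-like cells. With classes by marker score, the Guca2a differences to stem-like cells were 2.12 in enterocyte-like and 3.00 in Paneth-like cells at 5 days and -0.99 in tuft-like cells, those between traced and non-traced cells were -1.49 in goblet-like and -1.51 in Paneth-like cells, and those of Guca2b were -0.11 between enterocyte-like and goblet-like cells and -0.31 in tuft-like cells. At resolution 2 Guca2b between enterocyte-like and goblet-like cells was at 1.91, and Guca2a between 8 weeks and 5 days in goblet-like cells was 0.29. On all counts, Guca2b was at -0.092 in enteroendocrine-like cells, and tuft-like cells were at -0.77 for Guca2a and -0.92 for Guca2b. With DESeq2, goblet-like against Paneth-like cells gave -1.44 for Guca2b at 5 days and 0.93 for Guca2a at 8 weeks, and traced against non-traced Paneth-like cells -1.37 for Guca2a, which was -1.38 with library sizes without Paneth genes and -1.44 with the batch as a block. Between traced and non-traced goblet-like cells Guca2b was at -1.43 with no filter, -1.38 with the batch as a block and -1.70 without the deepest cell, and Guca2a at -1.37 without that cell. With no filter Guca2b over all cells was at 0.48 between 8 weeks and 5 days.

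Leaving out each library gave 0.47 to 3.47 for Guca2a in enterocyte-like against stem-like cells, -0.15 to 0.36 for Guca2b in enterocyte-like against goblet-like cells, 3.51 to 4.45 for Guca2a in enteroendocrine-like cells, -2.56 to 2.66 for Guca2b in tuft-like cells and 0.78 to 1.25 for Guca2a in goblet-like against Paneth-like cells at 8 weeks. Between traced and non-traced cells it gave -1.65 to -1.19 for Guca2a over all cells, -1.31 to -0.42 for Guca2a and -2.14 to -0.25 for Guca2b in goblet-like cells, and -1.83 to -1.15 for Guca2a and -0.061 to 0.24 for Guca2b in Paneth-like cells. Between 8 weeks and 5 days it gave -0.19 to 0.26 for Guca2a and 0.23 to 0.73 for Guca2b over all cells, and -0.69 to -0.34 for Guca2a and -0.30 to 0.31 for Guca2b in goblet-like cells. Guca2b over all cells passed without 5-day replicate 3 (adjusted p = 0.0416) or traced replicate 2 (0.0206).

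Of the traced and non-traced libraries with the same replicate number, those numbered 1 both lack and those numbered 2 both carry the mark II, as does traced replicate 3; their deviations correlate at 0.0905 and 0.127. Between 8 weeks and 5 days the same number is all that libraries share, with correlations of -0.0206 to 0.0627. With the replicate block, Guca2a in traced against non-traced Paneth-like cells was at -1.22 (adjusted p = 0.608) and Guca2b between 8 weeks and 5 days in goblet-like cells at -0.067; no other call of the members changed.

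Without the strongest 8-week traced Paneth-like cell, chosen by its Guca2a level after the data were seen, Guca2b between traced and non-traced Paneth-like cells was at -0.036.

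Over the alternatives the genes called between traced and non-traced cells ran from 55 to 811 over all cells (369 as reported), 0 to 68 in enteroendocrine-like (5), 0 to 111 in goblet-like (26) and 0 to 45 in Paneth-like cells (13), and in goblet-like cells from 9 to 233 between 8 weeks and 5 days (50). Between classes they ran at 5 days from 445 to 1141 for enterocyte-like (645), 146 to 476 for goblet-like (229) and 56 to 152 for Paneth-like (82) against stem-like cells, 211 to 905 for enterocyte-like against goblet-like (513) and 71 to 240 for goblet-like against Paneth-like cells (143). At 8 weeks they ran from 393 to 1177 for enteroendocrine-like (610), 277 to 735 for goblet-like (389), 621 to 1494 for tuft-like (793) and 465 to 1299 for Paneth-like (712) against stem-like cells, and 86 to 524 for goblet-like against Paneth-like cells (244). The goblet-like fit between traced and non-traced cells could not be made with cells down to 1500 transcripts. Shares of cells with both transcripts were 67.3% in goblet-like and 55.9% in Paneth-like cells after thinning to 3000 transcripts, and 10.6% in enterocyte-like cells with at least 2 transcripts of each.

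Of the 26 pathway results that passed, 11 passed in every alternative, 15 were lost in at least 1 and 0 turned direction; of the 58 that did not pass, 9 passed in at least 1. Gucy2c against stem-like cells, which did not pass in these classes, took the other sign in enterocyte-like cells at -0.089 on all counts, -0.68 down to 1500 transcripts and -0.19 by marker score. In Paneth-like cells at 5 days it did so at -0.19 with no filter, -0.47 down to 1500 transcripts and -0.0024 by marker score. At 8 weeks it did so in goblet-like cells at -0.034 on all counts, -0.070 with no filter, -0.15 down to 1500 and -0.037 from 5000 transcripts, and in Paneth-like cells at -0.0082, -0.19, -0.26 and -0.39 under the same settings and -0.051 by marker score. Leaving out each library gave it -0.13 to 0.30 in enterocyte-like and -1.02 to 0.50 in goblet-like cells at 5 days, and -0.11 to 0.18 in goblet-like and -0.099 to 0.18 in Paneth-like cells at 8 weeks.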
